A study of Homo sapiens with 10 samples.

Results

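The transcripts described here are the probe sets of a human gene array that carry no gene symbol and yet gave signal above background in UT-SCC-12a cells, an established line of cutaneous squamous cell carcinoma. A probe set is a group of short DNA probes read as 1 transcript. Members were chosen by the annotation and by the measured level of each group: a probe set was one when the symbol field of the authors' annotation was empty, its category was main or rescue, and its mean log2 value reached 5.0 over the 5 arrays of either group. This chose 2118 of 17009 unnamed probe sets, or 12.5%, among 48144 tested probe sets in all. By comparison, 10252 named probe sets reached the same level. The level itself was part of the choice and is given below only as a description.

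Cells stably overexpressing miR-23b-3p after lentiviral transduction (5 arrays) were set against cells transduced in the same way with a scrambled RNA (5 arrays), and total RNA was hybridized as biotin-labelled cDNA. All arrays come from 1 cell line, and the labels do not say whether the samples of a group were separate cultures, and p therefore speaks of the scatter among these 10 samples alone, which may be technical. The array medians lay between 3.16 and 3.19 in miR-23b-3p arrays and between 3.14 and 3.18 in control arrays, and arrays of 1 group correlated at 0.991 to 0.994. Of 10 keratinocyte and squamous carcinoma markers 7 reached the level of 5.0: KRT5, TP63, ITGB4, DSG3, SFN, CDH1 and EPCAM. The keratins KRT14, KRT17 and KRT6A did not, with means of 3.61, 3.78 and 3.62 in miR-23b-3p cells. In control cells they averaged 3.80, 3.86 and 3.83. None of the 6 fibroblast, 4 endothelial, 5 blood and immune or 4 melanocyte markers reached the level. Among these, COL1A1 and CDH5 read higher than the KRT14, KRT17 and KRT6A probe sets in both groups. The counts alone therefore do not settle the cell type. The named probe set of MIR23B, over the hairpin, averaged 6.43 ± 0.20 in miR-23b-3p cells and 6.21 ± 0.22 in control cells (SD, n = 5 each, log2), a difference of 0.22 with an adjusted p of 0.799 in limma, a linear model fitted over all probe sets. Nothing in the labels says whether the construct carries sequence that these probes match, so this value does not check the labels. The poly-A spikes, foreign RNAs added to follow labelling, averaged 5.35 ± 0.093 in miR-23b-3p arrays and 5.46 ± 0.020 in control arrays (exact two-sided permutation p = 0.0238).

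MicroRNAs such as miR-23b-3p pair through their seed, bases 2 to 8 of the mature strand, with messenger RNAs and some long noncoding RNAs and lower their stability or translation. The transcripts without a symbol are of many kinds. Small nucleolar RNAs guide chemical modification of ribosomal RNA, and U1 and U6 small nuclear RNAs work in the spliceosome and have many silent pseudogene copies in the genome. Long intergenic and antisense RNAs are often known only as records of gene catalogues such as Ensembl and NONCODE. A further group consists of ordinary protein-coding genes placed on alternative assemblies of the major histocompatibility complex (MHC), the region of chromosome 6 that holds the HLA genes.

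Among the members, 4 microRNA hairpins had an unadjusted p under 0.05 and a sequence in RefSeq (GRCh38.p14), and their mature strands are shown with that of the overexpressed microRNA so that the seeds can be compared; they were picked by that p among 31 matched genes. The seed is in capitals.
hsa-miR-23b-3p: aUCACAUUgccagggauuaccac
hsa-miR-4516: gGGAGAAGggucggggc
hsa-miR-4533: uGGAAGGAgguugccggacgcu
hsa-miR-4784: uGAGGAGAugcugggacuga
hsa-miR-4740-3p: gCCCGAGAggauccgucccugc
hsa-miR-4740-5p: aGGACUGAuccucucgggcagg
On this build the mature strands lie at chr9:95085265-95085287 (+) for miR-23b-3p, chr16:2133120-2133136 (+) for miR-4516, chr20:60478119-60478140 (+) for miR-4533, chr2:131491208-131491227 (-) for miR-4784, and chr17:81400716-81400737 (-) and chr17:81400753-81400774 (-) for the 3p and 5p strands of miR-4740. None of the 5 member strands shares its seed with miR-23b-3p. Over the 31 member microRNA genes matched to RefSeq hairpins, 0 of 43 mature strands had that seed, against 3 of 2545 in the whole RefSeq table. The hairpins of these 31 genes had a median GC content of 65.6% (41.7% to 76.6%), and those of 70 further unnamed microRNA genes below the level had a median of 54.8%. GC content and the difference between the groups correlated at r = -0.15 across the 31 genes, which share arrays and probe design, so this is only a description.

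By the authors' mRNA descriptions, 700 members were records of protein-coding genes, 420 were long noncoding RNAs, 244 were NONCODE transcripts, 139 were small nucleolar or Cajal body RNAs, 119 were microRNAs, 92 were pseudogenes, 83 were small nuclear RNAs, 68 were cDNA clones or other mRNA records, 55 were ribosomal RNAs and 26 were mitochondrial transfer RNAs. Another 134 had no description. The share of unnamed probe sets that reached the level differed widely between these kinds. All 26 mitochondrial transfer RNA probe sets reached it, as did 46.9% of the protein-coding records and 21.1% of the small nucleolar RNAs, while 6.78% of long noncoding RNAs, 5.92% of NONCODE transcripts and 5.14% of small nuclear RNAs did.

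**Figure D1:**
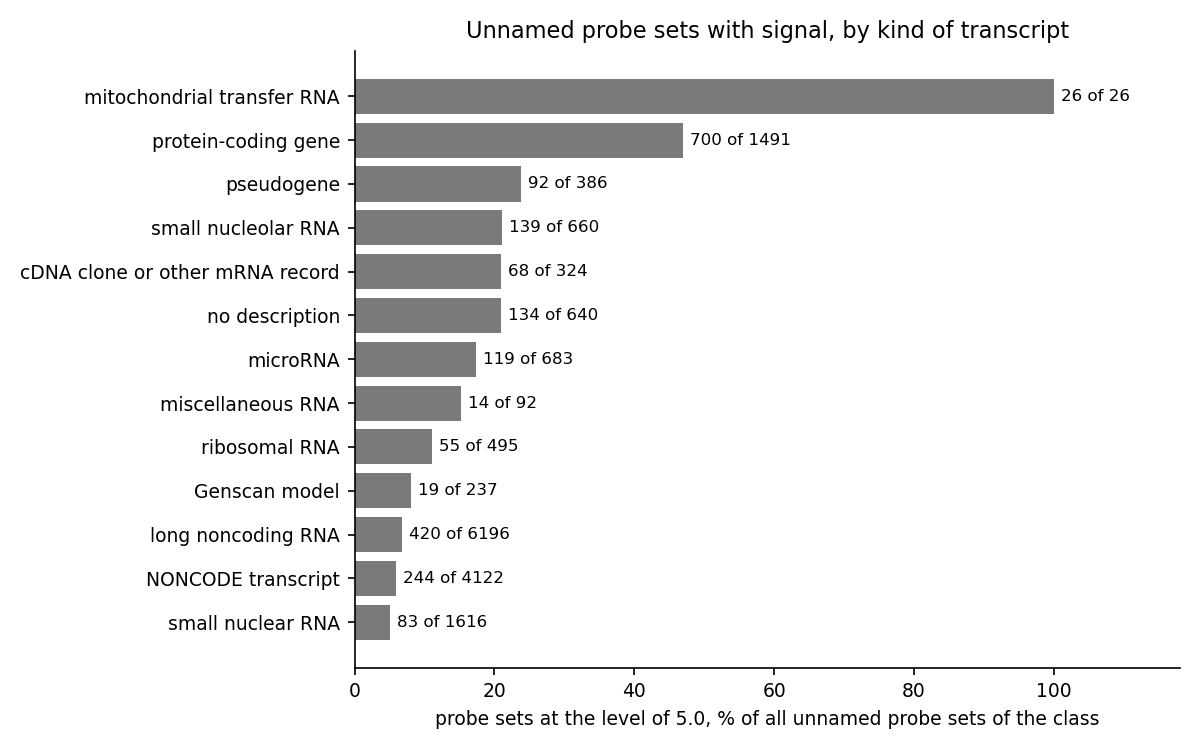
Share of unnamed probe sets that reached a mean of 5.0 (log2) in either group, by kind of transcript; bars give the percentage and the numbers beside them the members of all unnamed probe sets of that kind. Mitochondrial transfer RNAs stand at 26 of 26 and small nuclear RNAs at 83 of 1616.

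Most members could not be read as a single locus. The annotation gave 1729 members, or 81.6%, cross-hybridization type 3, meaning that some of their probes match other transcribed sequences as well. The same type held for 38.8% of unnamed probe sets below the level and for 7.22% of named probe sets at the same level. Of the members, 476 had the same 10 values as another member, which left 1791 distinct profiles, and 155 had all 10 values of a named probe set. By position, 744 members lay on chromosomes, 544 on 7 MHC haplotype contigs, 535 on assembled transcripts with no coordinates (TCONS records), 236 on other transcript records, 36 on unplaced contigs and 22 on the mitochondrial genome. The median member level was 6.34 (log2), and the median pooled SD between replicates was 0.151, against 0.105 for named probe sets at the same level.

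The 10 members with the highest means were records of 28S, 18S, 16S and 12S ribosomal RNA, of the mitochondrial genes for ATP synthase subunits 6 and 8 and NADH dehydrogenase subunit 4L, and of EEF1A1 and RPL10, which encode a translation factor and a ribosomal protein. The 16S probe set is described as a TVAS5 record and spans bases 1671 to 3229 of the mitochondrial genome. The mitochondrial ATP synthase 6 record averaged 12.99 ± 0.084 in miR-23b-3p cells and 13.04 ± 0.056 in control cells, with a difference of -0.04 and an adjusted p of 0.936. The 18S record had values of 12.37, 12.59, 12.98, 12.33 and 12.32 in miR-23b-3p cells, against 12.55, 12.46, 12.41, 12.45 and 12.45 in control cells. Replicate 3 of the miR-23b-3p arrays was the highest of all 10, and the groups overlapped. Differences of these 10 records ran from -0.07 to 0.05, and none passed the test.

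At the threshold itself, the 3 members nearest above 5.0 were a NONCODE transcript on chromosome 19 with a control mean of 5.000, a PSMB9 copy with a mean of 5.002 in miR-23b-3p cells and a pseudogene on chromosome 5 with 5.002 in miR-23b-3p cells. The 3 unnamed probe sets nearest below it were a linc-TP53TG3B record with 4.996 in miR-23b-3p cells, an unplaced microRNA record with 4.996 in control cells and HOXB cluster antisense RNA 4 with 4.994 in miR-23b-3p cells. The level was reached in both groups by 1990 members, only in miR-23b-3p cells by 68 and only in control cells by 60. The differences of those 128 have their sign from the choice itself.

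With miR-23b-3p overexpression 1 member fell and none rose at an adjusted p of 0.05, that is 1 of 2118 or 0.0472%, beside 9 of all 48144 tested probe sets, or 0.0187% (7 lower, 0.0145%, and 2 higher, 0.00415%), and 0.0585% of named probe sets at the same level. At an unadjusted p under 0.05, 197 members, or 9.3%, were counted, 103 higher (4.86%) and 94 lower (4.44%). Of all tested probe sets 6.63% were counted so, 3.67% higher and 2.95% lower, and of named ones at the same level 8.65%. Of the 197 members, 12 higher and 13 lower had reached the level through the mean of their higher group alone. Among the 1990 members at the level in both groups, 8.64% had an unadjusted p under 0.05 and 0 were called. The groups did not overlap in 48 members, or 2.27%, 23 higher (1.09%) and 25 lower (1.18%), beside 1.35% of all tested probe sets (0.685% higher and 0.661% lower) and 3.4% of named ones at the same level. The median member difference was 0.006 (log2), and the median over all tested probe sets was 0.002.

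**Figure D2:**
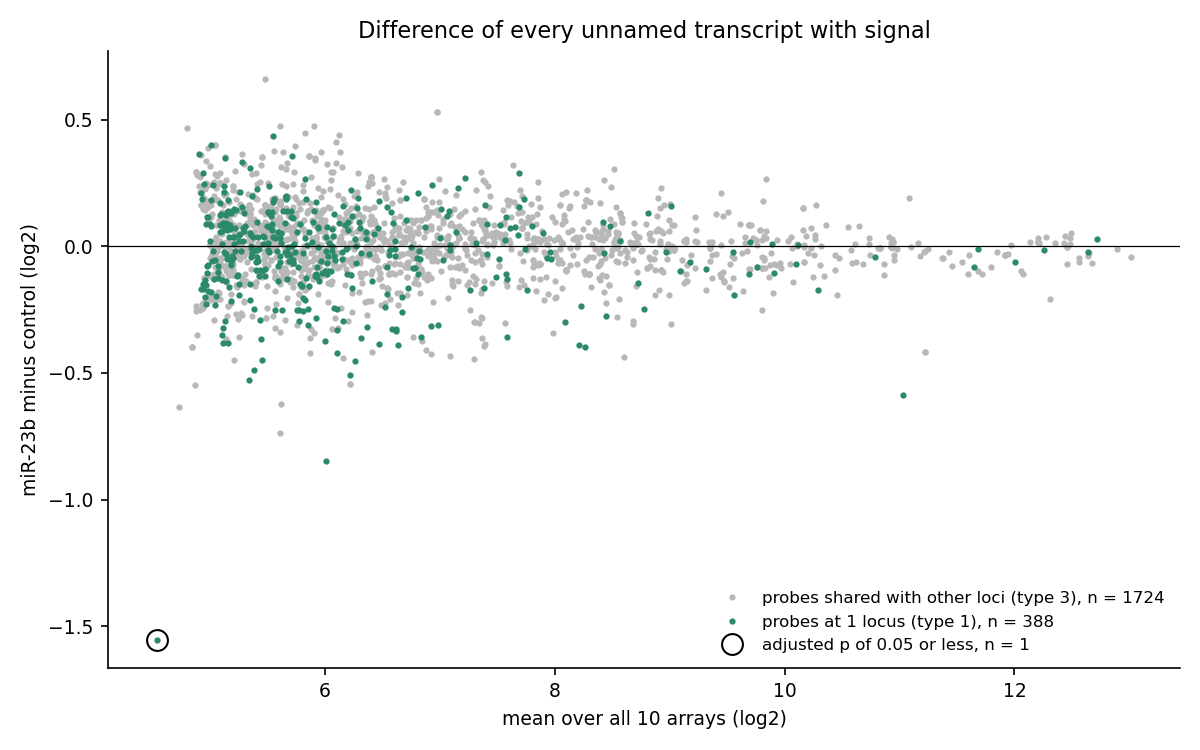
Difference between miR-23b-3p and control cells (log2, vertical) against the mean over all 10 arrays (log2, horizontal) for 2112 members; 6 members on or described as on chromosome Y are not plotted. Green points mark 388 members whose probes match 1 locus, grey points 1724 whose probes are shared, and the ring marks the 1 called member at -1.55.

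The called member was an unnamed long intergenic RNA on chromosome 21, probe set 16922795, listed as ENSG00000229986 and placed at chr21:40218171-40220568 on the plus strand of hg19. Its 18 probes match 1 locus. Its log2 values were 3.91, 3.60, 3.69, 3.70 and 3.92 in miR-23b-3p cells, against 5.30, 5.36, 5.02, 5.19 and 5.72 in control cells. All 5 miR-23b-3p arrays lay more than 1 log2 unit below all 5 control arrays. Antigenomic background probes, which match no human sequence, averaged 3.25 to 3.46 in miR-23b-3p arrays and 3.34 to 3.46 in control arrays. The miR-23b-3p values of this RNA lay close to that floor, which limits the fall that can be read. The transcript's means were 3.76 ± 0.14 in miR-23b-3p cells and 5.32 ± 0.26 in control cells. It fell by 1.55 on the log2 scale (SE 0.12), a 2.94-fold difference, with an adjusted p of 0.000619. It was a member through its control mean alone, so its fall is partly what brought it in. The authors' deposited table lists it with a fold of -2.96 and a q-value of 0.111, and lists 0 members with a q-value under 0.05. Of the settings tried, 1 ended the call, a test with unequal variances that shares nothing between probe sets; it gave an adjusted p of 0.131, and over all settings the adjusted p ran from 6.19e-05 to 0.131.

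No probe set around this RNA passed the test beside it. ETS2, a transcription factor gene 21292 bp away, averaged 9.73 in miR-23b-3p cells and 9.69 in control cells, with an adjusted p of 0.935. The nearest named probe set on the plus strand, LOC101928398 at 8864 bp, differed by 0.05 (adjusted p = 0.934). It averaged 2.44 in miR-23b-3p cells and 2.40 in control cells, below the antigenomic background. A probe set named TMPRSS3, whose annotated span of chromosome 21 covers the locus on the other strand, differed by 0.006 (adjusted p = 0.996). Of 9 probe sets within 100 kb, itself included, it was the 1 past the threshold. Apart from it, ETS2 and TMPRSS3, all of them averaged below the antigenomic background in both groups. A fall could not be read in those, so the window says little about how local the change was.

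The second largest fall among members with separate groups was an antisense RNA on the plus strand of chromosome 8 that runs across LY6D, probe set 17073247 at chr8:143866790-143893536 (hg19). It gave 5.51, 5.63, 5.63, 5.54 and 5.62 in miR-23b-3p cells, against 6.62, 6.68, 6.61, 5.95 and 6.30 in control cells. Every miR-23b-3p array was below every control array, and the fourth control array was the lowest of its group. The difference was -0.85 (SE 0.12) with an adjusted p of 0.0657, which missed the threshold. LY6D, which encodes a surface protein of keratinocytes, lies on the opposite strand and overlaps it; its named probe set averaged 6.85 in miR-23b-3p cells and 7.64 in control cells and fell by 0.79 (adjusted p = 0.00748). The antisense member was called, with -0.86, after each array was centred on its median, with -0.97 without control replicate 4, and with -0.85 when probe sets of type 1 alone were fitted or a mean-variance trend was used.

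**Figure D3:**
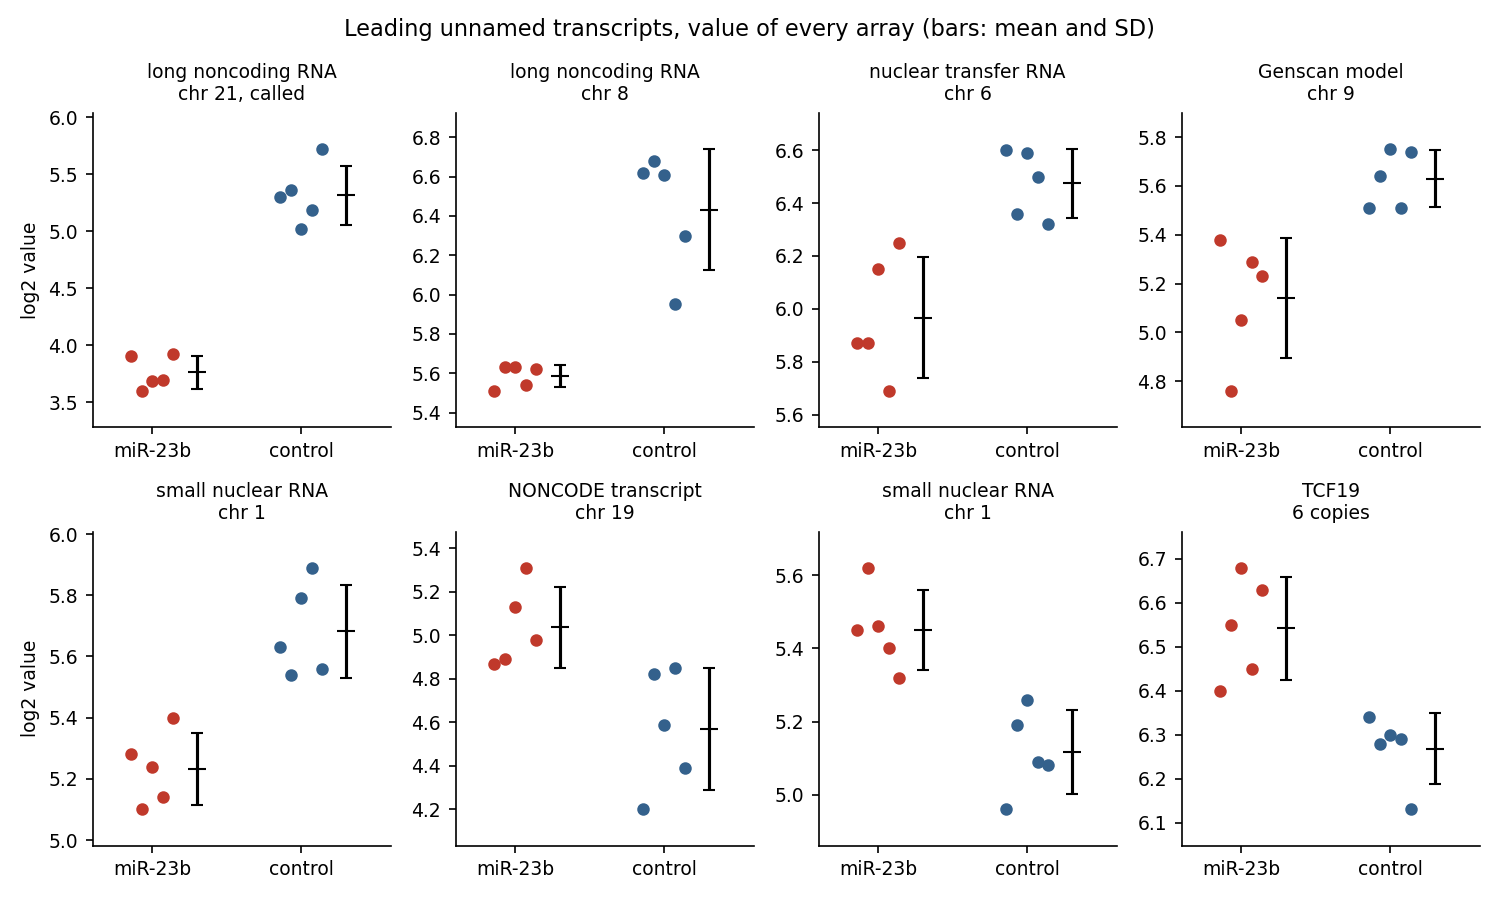
Log2 values of every array for 8 leading members, miR-23b-3p arrays in red and control arrays in blue, with the mean and SD of each group as bars; the vertical axes differ between panels and do not start at 0. The lincRNA of chromosome 21 is the 1 panel whose difference passed the test; in the first 5 panels all miR-23b-3p arrays are lower than all control arrays and in the last 3 all are higher.

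No other member passed the test, so the next values are given as measured. A nuclear transfer RNA for isoleucine on chromosome 6 had 5.87, 5.87, 6.15, 5.69 and 6.25 in miR-23b-3p cells, against 6.60, 6.36, 6.59, 6.50 and 6.32 in control cells. The groups were separate, and the difference was -0.51 (SE 0.11, adjusted p = 0.283). A U1 pseudogene on chromosome 1, RNA U1 small nuclear 122, had 5.28, 5.10, 5.24, 5.14 and 5.40 in miR-23b-3p cells, against 5.63, 5.54, 5.79, 5.89 and 5.56 in control cells, a difference of -0.45 (adjusted p = 0.224). A Genscan model, a computer-predicted gene, on the strand opposite LPAR1 differed by -0.49 (adjusted p = 0.339), while LPAR1 itself, a receptor for lysophosphatidic acid, differed by -0.08 (adjusted p = 0.871). A short record of RACK1, which encodes a scaffold protein of the ribosome, differed by -0.44 (adjusted p = 0.268). That record is described as a retained intron, and its 20 probes are of type 3. The named RACK1 probe set differed by -0.08.

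SNAR-C2 is a small noncoding RNA bound by the protein NF90. Its 2 unnamed records shared all values: 11.12, 10.86, 10.92, 10.89 and 11.28 in miR-23b-3p cells, against 11.57, 11.35, 11.45, 11.47 and 11.31 in control cells. The highest miR-23b-3p array was just below the lowest control array. The difference was -0.42 (SE 0.09) with an adjusted p of 0.297, and the records rest on 4 probes of type 3. The named SNAR-C2 probe set differed by -0.39.

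The 23 higher members with separate groups held 15 distinct profiles, and the largest difference among them was that of a NONCODE transcript on chromosome 19 near SPINT2. It averaged 5.04 ± 0.18 in miR-23b-3p cells and 4.57 ± 0.28 in control cells, a difference of 0.47 (adjusted p = 0.513), and it was a member through the miR-23b-3p mean alone. SPINT2, the protease inhibitor gene 1930 bp away, differed by 0.004. A U6 pseudogene on chromosome 1, RNA U6 small nuclear 999, had 5.45, 5.62, 5.46, 5.40 and 5.32 in miR-23b-3p cells, against 4.96, 5.19, 5.26, 5.09 and 5.08 in control cells. The groups did not overlap, and the difference was 0.33 (adjusted p = 0.344).

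Of 139 small nucleolar RNA members, 104 were lower and 34 higher in miR-23b-3p cells, and 0 were called. At an unadjusted p under 0.05 there were 11 lower, 1 of which had reached the level through its control mean alone, and 1 higher, or 8.63% in all, beside 6.63% of all tested probe sets (2.95% lower and 3.67% higher). Of all named probe sets at the same level 8.65% were counted so. The median difference of the 139 was -0.08, beside 0.002 over all tested probe sets and -0.10 over 141 named small nucleolar and Cajal body RNAs at the same level. Of these 141, 27 were lower and 0 higher at that p, or 19.1%. The groups were separate and lower in 8 of the 141 and in 3 of the 139. The mean deviation of the 139 from their own 10-array means lay between -0.14 and 0.04 in miR-23b-3p arrays and between -0.02 and 0.06 in control arrays, so the groups overlapped. The lowest array, miR-23b-3p replicate 4, also had the lowest poly-A spikes, 5.20, against 5.34 to 5.46 in the other miR-23b-3p arrays. Without it the median was -0.03, and with each array's spike level added to the model, an alternative chosen after seeing the data, it was 0.02. The spikes themselves differed between the groups (means of 5.35 in miR-23b-3p and 5.46 in control arrays), so that model cannot separate spike level from group. The part of the spikes in this result was not tested beyond that.

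The 2 families of guide RNAs had like sign counts but not like counts by p. Of 45 H/ACA records, the family that guides pseudouridylation, 36 were lower and 9 higher, with 7 lower and 0 higher at an unadjusted p under 0.05. Of 74 C/D box records, which guide ribose methylation, 57 were lower and 17 higher, with 1 lower and 0 higher at that p. Of all tested probe sets 2.95% were lower and 3.67% higher at that p. The families also differed in median level (6.13 for H/ACA and 8.54 for C/D box), in records of type 3 (35 of 45 and 73 of 74) and in distinct profiles (43 and 58). The difference between the families was not tested. A SNORA70 copy on chromosome 12 differed most, with 5.92, 5.29, 5.31, 4.95 and 4.72 in miR-23b-3p cells, against 5.87, 6.45, 5.64, 6.0 and 5.92 in control cells. The groups overlapped through the first miR-23b-3p array, and the difference of -0.74 (SE 0.20) had an adjusted p of 0.495. A record of SNORA4 averaged 6.71 ± 0.24 in miR-23b-3p cells and 7.13 ± 0.14 in control cells, a difference of -0.43 (adjusted p = 0.476). SCARNA12, a Cajal body RNA, differed by -0.19 with separate groups.

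Of the 134 members with no description, 80 were lower and 54 higher, with a median of -0.05. At an unadjusted p under 0.05 there were 17 lower and 0 higher, or 12.7%, beside 6.63% of all tested probe sets (2.95% lower and 3.67% higher) and 8.65% of named ones at the same level. These 17 held 15 distinct profiles, 4 of the 17 had reached the level through the control mean alone, and 5 were near copies with 25 probes each, whose means lay between 7.16 and 7.20 in miR-23b-3p cells and between 7.46 and 7.58 in control cells. One of them on chromosome 6 had 5.13, 4.91, 4.89, 5.04 and 4.95 in miR-23b-3p cells, against 5.16, 5.75, 5.24, 5.54 and 5.47 in control cells, with separate groups and a difference of -0.45 (adjusted p = 0.369). Another on chromosome 12, which overlaps PTGES3 on the opposite strand, averaged 4.60 ± 0.27 in miR-23b-3p cells and 5.14 ± 0.23 in control cells, with overlapping groups (adjusted p = 0.424), while PTGES3, a co-chaperone gene, differed by -0.02. Both of these members reached 5.0 through the control mean alone, so the sign of their differences was set by the choice of members.

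Of 119 microRNA members, 78 were higher and 41 lower. At an unadjusted p under 0.05 there were 9 higher and 2 lower, or 9.24%, beside 6.63% of all tested probe sets (3.67% higher and 2.95% lower) and 7.75% of named microRNAs at the same level. None was called, and the median difference was 0.09, or 0.04 with the spike level in the model, which cannot separate spike level from group. Named microRNAs at the same level, 129 in number, had a median of 0.06. These probe sets are small, with a median of 8 probes, and 114 of the 119 are of type 3. The array reads the hairpin or its host transcript, not the mature strand. MIR614 had 10.00, 10.11, 9.88, 9.79 and 10.09 in miR-23b-3p cells, against 9.66, 9.54, 9.83, 9.82 and 9.69 in control cells, with overlapping groups and a difference of 0.27 (SE 0.08, adjusted p = 0.604). The hairpin of MIR4516, whose strand is printed above, averaged 5.81 ± 0.29 in miR-23b-3p cells and 5.15 ± 0.62 in control cells, a difference of 0.66 (adjusted p = 0.699). MIR1304 ran the other way with -0.23 (adjusted p = 0.650), as did MIR4740 with -0.62 (adjusted p = 0.750). The hairpins of MIR4533 and MIR4784 differed by 0.23 and 0.24 (adjusted p of 0.706 and 0.750).

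**Figure D4:**
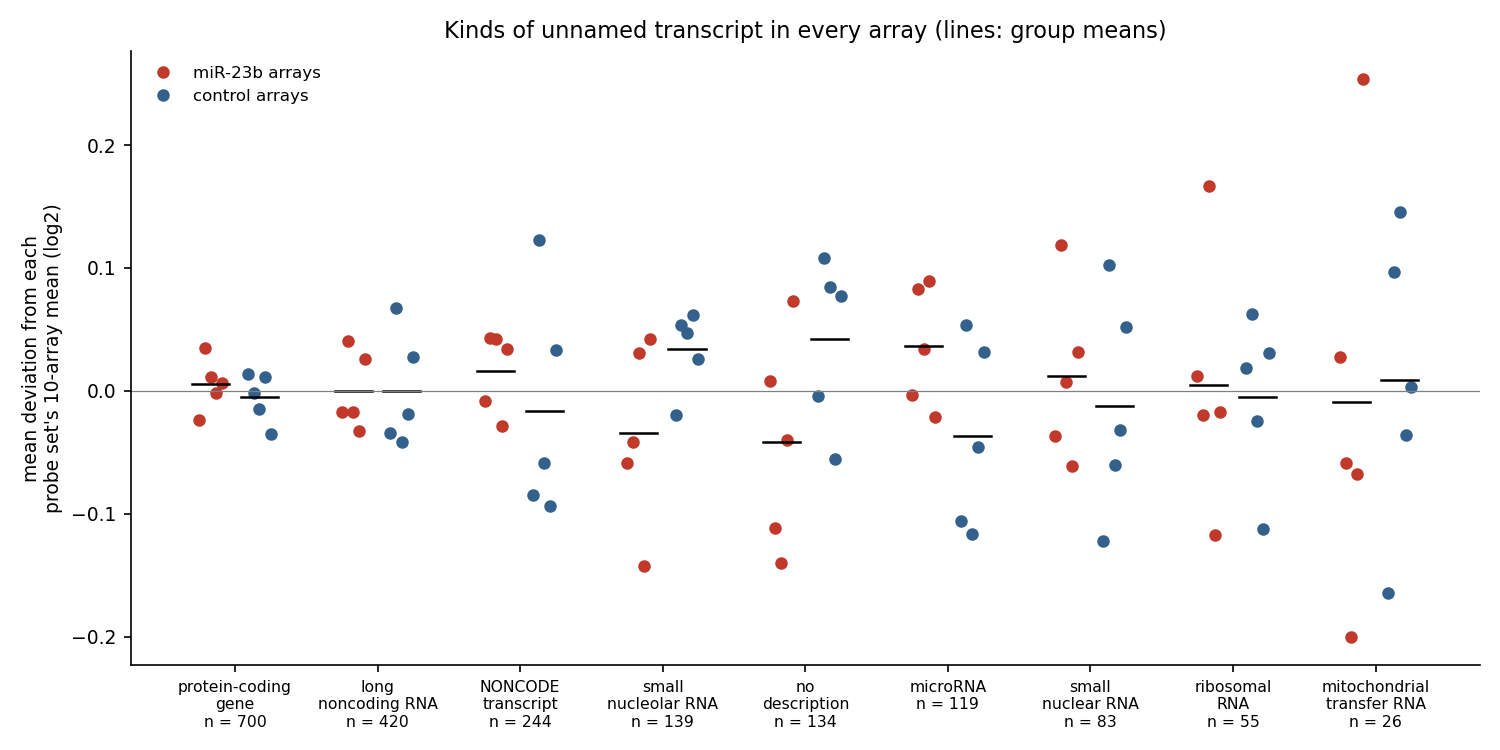
Mean deviation (log2) of the members of 9 kinds from their own 10-array means, 1 point per array, miR-23b-3p arrays in red left of control arrays in blue, with a line at each group mean. In small nucleolar RNAs and members with no description the miR-23b-3p mean lies below the control mean and in microRNAs above it, and the points of the groups overlap in every kind shown.

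Spliceosomal and ribosomal pseudogenes did not share 1 direction. Of 51 U6 records, 32 were higher and 19 lower with a median of 0.15, on 37 distinct profiles. Of 21 U1 records, 10 were higher and 11 lower, from -0.45 for the copy above to 0.53 for both records of the U1 pseudogene 106, which averaged 7.24 ± 0.33 in miR-23b-3p cells and 6.71 ± 0.23 in control cells (adjusted p = 0.521). Of 49 records of 5S ribosomal RNA, 26 were higher and 23 lower with a median of 0.002. The 5S pseudogene 496 on chromosome 22 was the 1 of them with separate groups, at 6.68 ± 0.21 in miR-23b-3p cells and 7.09 ± 0.13 in control cells (adjusted p = 0.424). The list of 38 named noncoding RNAs of every cell, among them RN7SK and MALAT1, gave 0 calls in 27 measured genes, with a median of -0.04. At an unadjusted p under 0.05 there were 4 lower and 0 higher of the 27. Of all tested probe sets 0.0187% were called, and 2.95% were lower and 3.67% higher at that p. The lowest p of the list belonged to RNU11 and RNU4ATAC, which serve the minor spliceosome and differed by -0.27 and -0.19 (adjusted p = 0.575 for both).

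The 26 mitochondrial transfer RNA probe sets had a median level of 9.69, 10 were higher and 16 lower, and their median difference was -0.02. The record for tRNA arginine had 6.20, 6.59, 6.30, 6.42 and 6.76 in miR-23b-3p cells, against 6.59, 6.97, 6.90, 6.88 and 6.61 in control cells, overlapping groups and a difference of -0.34 (adjusted p = 0.652). ND4L, the mitochondrial gene that starts 1 base after it, differed by -0.03. The mean deviation of all 26 ranged from -0.20 to 0.25 over miR-23b-3p arrays and from -0.16 to 0.15 over control arrays, a wider range in either group than in any other kind plotted.

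Records of protein-coding genes made up the largest kind, with 385 higher and 307 lower, a median difference of 0.012 and no call. At an unadjusted p under 0.05 there were 51 higher and 13 lower, or 9.14%. Of all tested probe sets 6.63% were counted so, 3.67% higher and 2.95% lower. Of 10252 named ones at the same level 8.65% were, 474 higher and 413 lower. Among the 51 higher, 6 had reached the level through their miR-23b-3p mean alone, as had 1 of the 13 lower through its control mean. The groups were separate in 19 higher and 6 lower of the 700 members. All tested probe sets gave 0.685% higher and 0.661% lower with separate groups, and named ones at the same level 3.4% in either direction. Counted once per distinct profile, the members under that p became 29 higher and 13 lower, and those with separate groups 11 higher and 6 lower. On the MHC haplotype contigs, 508 members could be tied by description to 109 genes, and 92 of these genes had several copies. In 23 of them all copies held the same 10 values, so a count of probe sets counts such genes several times over. On these contigs 17 of 544 members were higher and 1 lower with separate groups. All tested probe sets gave 0.685% higher and 0.661% lower, and 10252 named ones at the same level gave 179 higher and 170 lower. The repeated counting bears on the 17 higher members, since TCF19 alone gives 6. Its 6 copies, whose gene encodes a nuclear protein, had 6.40, 6.55, 6.68, 6.45 and 6.63 in miR-23b-3p cells, against 6.34, 6.28, 6.30, 6.29 and 6.13 in control cells, a difference of 0.27 (SE 0.07, adjusted p = 0.466). The TCF19 probe set that carries the name had a level of 4.85 and differed by -0.13, with the opposite sign.

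Of the 544 members on MHC contigs 293 were higher and 245 lower, with a median of 0.011. Of the 92 genes with several copies there, all copies were higher in 40, all lower in 27, and the signs were mixed or 0 in 25. MICB and C6orf15 are named for their differences. The 6 copies of MICB, a stress-induced ligand of the immune receptor NKG2D, differed by 0.16 to 0.24, and its named probe set by 0.18. The leading MICB copy had 7.59, 7.47, 7.64, 7.52 and 7.47 in miR-23b-3p cells, against 7.23, 7.32, 7.29, 7.43 and 7.23 in control cells (adjusted p = 0.492). The 5 copies of C6orf15, a gene of the skin-related PSORS1 region, differed by 0.13 to 0.47, and the leading one averaged 6.14 ± 0.083 in miR-23b-3p cells and 5.67 ± 0.26 in control cells (adjusted p = 0.369). Smaller differences were read in the 5 copies of HLA-C, by -0.02 to 0.03, and in the 6 of HLA-E, by 0.03. The 13 copies of DDX39B, an RNA helicase gene, differed by -0.03 to 0.01, although they rest on different probes and read from 7.12 to 11.92 on the same arrays, so a level here is a property of the probes as well as of the RNA.

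Across genes, the median difference of the copies was set beside that of the named probe set where that probe set reached 5.0. For 84 MHC genes the signs were the same in 70 and r was 0.87. In 39 of the 100 MHC genes with a named probe set, some or all copies hold that probe set's own values. For 148 other genes the signs were the same in 106 and r was 0.62. These pairs share arrays and often probes, so r is a description. A gene outside the MHC where copy and name went apart was SLC25A3, the mitochondrial phosphate carrier, with 0.29 in the unnamed record and -0.05 in the named probe set.

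**Figure D5:**
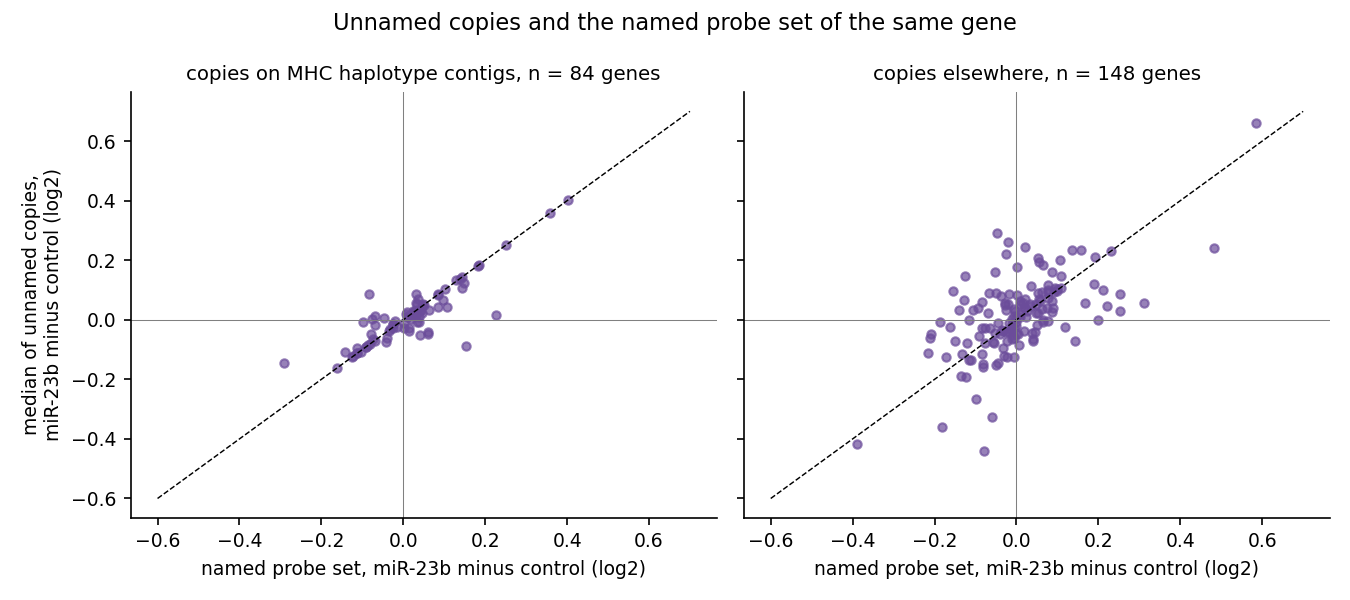
Median difference of a gene's unnamed copies (log2, vertical) against the difference of its named probe set (log2, horizontal), 1 point per gene, for 84 genes on MHC haplotype contigs (left) and 148 genes elsewhere (right); the dashed line marks equal values. Points on the left lie closer to the line than those on the right, and many on the left share probes with the name.

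Of the 744 members on chromosomes, 274 overlapped a named probe set on the same strand, 207 only on the opposite strand and 263 none, with median differences of 0.03, -0.04 and 0.04. Among distinct pairs whose named probe set reached 5.0, the signs were the same in 99 of 178 pairs on the same strand (r = 0.20) and in 68 of 130 on opposite strands (r = 0.15). Outside the members, 1 more unnamed probe set was called, a NONCODE transcript at chr1:171783652-171783766 (hg19), 489 bp from METTL13. It had 4.96, 4.15, 4.40, 4.41 and 4.46 in miR-23b-3p cells, against 3.64, 3.59, 3.35, 3.54 and 3.38 in control cells, all below 5.0, and rose by 0.98 (SE 0.13, adjusted p = 0.0385). This call was lost in 8 of the 10 fits that left out 1 array and with the spike level in the model. The control values of this transcript lay close to the antigenomic background of the control arrays, 3.34 to 3.46. METTL13, a methyltransferase gene, differed by 0.02.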

How the data were processed

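Total RNA of 10 samples, 5 per group, was read on Affymetrix human gene arrays. Each sample's title gave its group and number. The deposited log2 values were made by RMA, per the submitters' processing notes, with background correction, quantile normalization and median polish, per the file headers, and are given to 2 decimals. The authors' table supplied a signed linear fold (used as a score), p-values from Student's t-test and q-values, per the file headers, with NetAffx build 36 annotation on hg19. Its fold equalled the linear ratio of miR-23b-3p over control means for 48144 of 48144 probe sets at a tolerance of 0.001. Its 10 columns of values per array match no sample label and were not used. Any pair of arrays shared at most 2.16% identical values.

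Of 53617 probe sets, 5473 control and reporter sets were left out. The 48144 others were fitted with limma 3.58.1 (lmFit and eBayes, no covariates) in R 4.3.3, with Benjamini-Hochberg adjustment over all of them and a threshold of 0.05; the fit was tested on simulated data. SE is limma's moderated standard error. Kinds were read from the wording of the mRNA description, those under 10 members pooled. Symbols for 989 members (441 genes) came from that description, checked against a RefSeq table of GRCh38.p14 used for names only. The symbol UCN among them is wrong, since it was read from the codon in the mitochondrial record of tRNA serine 1 (UCN). Members, kinds and lists were chosen with earlier results of these data known, so no test over the members alone is given. Picked for naming were called members, up to 10 higher and 10 lower with separate groups, the 10 highest levels and 3 on either side of 5.0. The 2 smallest p per kind, neighbours within 10 kb and called non-members were picked as well. Not all of the smallest p per kind, and not all neighbours, are described above. Further family, copy and microRNA members were named after their values were seen. The sample numbers do not pair the groups: deviations of same-numbered arrays correlated at -0.10 to 0.04.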

Additional observations from a re-analysis of the deposited data

Results flagged for a closer look

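Among 96 groups of 5 arrays of the probe sets picked for naming, 7 had 1 array apart from the others by Dixon's gap. Chance gives about 1 group in 20. In miR-23b-3p cells the EEF1A1 pseudogene 17 read 7.57 in replicate 4 (others 7.26 to 7.34), the unplaced microRNA record just below the level read 3.90 in replicate 1 (others 4.60 to 4.88), and tRNA tryptophan read 7.44 in replicate 3 (others 8.0 to 8.12). In control cells TCF19 copies read 6.13 in replicate 5 (others 6.28 to 6.34) and MIR1304 read 6.82 in replicate 4 (others 6.51 to 6.59). In control replicate 1 the mitochondrial ATP synthase 6 record read 12.94 (others 13.04 to 13.08) and a cDNA record on chromosome 1, FLJ21031, read 4.87 (others 5.02 to 5.08).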

How the results depend on the processing

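The 1 called member kept its direction and its call under every setting tried except the Welch test without moderation (difference -1.55, adjusted p = 0.131); leaving out 1 array at a time gave -1.63 to -1.45. The count of called members was 0 under the Welch test, 0 with membership by the mean over all arrays, 0 with a level of 5.5, and 2 with type 1 probe sets alone, a mean-variance trend or median centring; leaving out 1 array gave 1 to 2. Over all probe sets calls went to 26 with the trend, 13 with type 1 sets, 3 with Welch, 1 with the replicate block and 2 with the poly-A spikes as a covariate, chosen after seeing the data; with the covariate the called member had an adjusted p of 0.0467. The count at an unadjusted p under 0.05 was 45 with type 1 sets and 130 with main sets alone, which hold fewer members, and 169 to 229 without 1 array. The count of members with separate groups was 10 and 30 in these subsets, and 60 to 90 without 1 array, since fewer arrays separate more easily. The median difference was -0.02 with type 1 sets, -0.01 after centring, 0.02 with the spike covariate and -0.00025 to 0.014 without 1 array. The spikes differed between the groups, so fits with the covariate cannot separate spike level from group. The replicate block left 1 called member and 188 at an unadjusted p under 0.05, and 0 of 5 miR-23b-3p arrays correlated best with their own number. Over 38 probe sets picked as called, by separate groups or by smallest p, and 761 refits, 0 changed sign, 12 lost and 4 gained a call. The kept signs were largely set by that choice, made in these same data. Identical records, such as the TCF19 copies, were counted separately. Short probe sets of type 3 and levels near 5.0 limit what single members can show.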

Other observations

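The members with the largest spread between replicates were looked up after the values were seen, and in the 6 most variable distinct profiles replicate 3 was the extreme array of the miR-23b-3p group. A NONCODE transcript on chromosome 3 (chr3:96336029-96337039, hg19) had 11.47, 10.22, 8.99, 11.40 and 11.60 in miR-23b-3p cells, against 11.09, 11.52, 11.56, 11.00 and 11.45 in control cells. A NONCODE transcript on chromosome X had 7.55, 7.54, 5.09, 7.29 and 7.91 in miR-23b-3p cells, against 7.31, 7.38, 7.88, 7.41 and 7.62 in control cells. The 5S ribosomal pseudogene 408 went the other way in that array, with 6.57 against 4.57 to 5.01 in the other miR-23b-3p arrays and 4.17 to 5.36 in control arrays. Over the 1791 distinct profiles, Dixon's gap set this array apart from its own group in 29, or 1.62%, and the counts of all 10 arrays ran from 9 to 34.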
